A study of Homo sapiens with 28 samples.

Results

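Exonic m6A peaks of long noncoding RNAs (lncRNAs) were taken from 14 peak lists of caRNA, that is, chromatin-associated RNA, which is recovered with the chromatin pellet when nuclei are fractionated. A peak belonged to the set when its summit lay in an exon of a GENCODE lncRNA gene on the strand of the peak, in no protein-coding gene on that strand, and not from 1000 bases upstream to 100 bases downstream of any transcript start on either strand. Of 495694 peaks on chromosomes 1 to 22 and X, 14547 met this rule (2.93%), in 1556 of 18756 annotated lncRNA genes. Among the listed peaks, annotation and not signal chose the members. Their fold, width, sequence and presence across libraries were thus free to vary within what the peak calling let through.

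The lists came from methylated RNA immunoprecipitation sequencing (MeRIP-seq), in which an antibody against N6-methyladenosine (m6A) enriches RNA fragments that carry the mark. Of 28 samples, 14 were immunoprecipitated (IP) libraries with a peak list each, and the 14 input libraries are not analysed here. HepG2 cells derive from a liver tumour (hepatoma), K562 cells from chronic myelogenous leukaemia and NB4 cells from acute promyelocytic leukaemia. Unmodified (WT) cells gave 2 HepG2 and 2 K562 libraries. K562 Control (n = 2) and NB4 Control (n = 3) cells carried a non-targeting short hairpin RNA, and K562 RBFOX2 KD (n = 2) and NB4 RBFOX2 KD (n = 3) cells a hairpin against RBFOX2, an RNA-binding protein that the study ties to m6A on caRNA. Hairpins were delivered by lentivirus, and the methods describe puromycin selection of transduced cells, for K562 into stable lines. Control and KD thus differ from WT cells in these steps too. The methods keep stable RBFOX2 KD K562 cells in puromycin and do not say whether K562 Control cells were kept so. The labels do not say that libraries of a group came from separate cultures, so a p-value here measures the spread between these libraries, which may be technical.

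Most lncRNAs are transcribed by RNA polymerase II, capped and often spliced, but many stay in the nucleus, where some act on the chromatin they are made from. The METTL3-METTL14 methyltransferase places m6A on nascent RNA at adenosines of the DRACH context, an A, G or T followed by A or G, then AC, then A, C or T. In mRNA the mark is known to be dense in long internal exons and near the stop codon, and sparse next to exon junctions, where the exon junction complex limits methylation. An lncRNA has no stop codon, so its exons show where m6A falls without one.

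The lines carried peaks on their own marker genes. HepG2 libraries had peaks on 3 to 5 of 7 hepatocyte markers and NB4 libraries on 0, K562 libraries on 6 to 8 of 8 erythroid markers and NB4 libraries on 7 of 8 granulocytic markers. Off-line peaks were fewer, on 0 to 1 hepatocyte marker in K562, on 1 erythroid marker in HepG2 and 1 to 2 in NB4, and on 2 granulocytic markers in HepG2 and 1 to 3 in K562. The lists held 22635 to 44043 peaks. The depth recovered from the lists, called effective reads, ran from 10.8 to 30.9 megareads per library and is approximate in HepG2 WT 1 and 2 and in NB4 Control 3, whose pileups were not whole numbers. Depth limits which weak peaks reach a list. The RBFOX2 gene held 2 to 3 peaks in K562 Control, 3 in each K562 KD library and 1 to 2 in NB4 Control and in NB4 KD libraries. Peaks do not measure transcript level, so the knockdown itself was not checked here. In bulk RNA, a change in peaks cannot be told apart from a change in the amount of the RNA.

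The rule left out many lncRNA summits. Of 25677 summits in an lncRNA exon on their strand, 9469 lay close to a transcript start and a further 1661 in a protein-coding gene, so 56.7% were kept. MALAT1, the abundant lncRNA of nuclear speckles, had 40 summits in 12 libraries, of which 39 lay close to an annotated start and 1 was a member. NEAT1, the scaffold of paraspeckles, had 28 summits, of which 15 lay close to a start and 13 were members.

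Peaks of all lists that shared a base on a strand were merged into 86263 regions. A region counted as an exonic lncRNA region when members made up at least as many of its summits as non-members, which held for 2362 regions in 1439 genes and covered 13676 of the member summits. Of these genes, 977 had 1 region and 42 had 5 or more. Genes without an approved symbol carried 41.9% of member peaks (797 genes), antisense genes named -AS 18.6% (257 genes), LINC genes 13.2% (207 genes), divergent transcripts named -DT 6.72% (100 genes) and host genes of small RNAs 2.83% (25 genes). Genes that GENCODE tags as overlapping a pseudogene held 19.7% of member peaks (215 genes), and reads there can come from a near-identical copy.

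The summit with 50 bases to either side is given first for 4 of the regions with the highest rank among those listed in all 14 libraries. Rank is the percentile of the −log10 q-value within a list, with 100 for the strongest peak, averaged over libraries. Capitals mark every match to DRACH, printed as DNA on the strand of the RNA (hg38).
GMDS-DT (chr6:2272810-2272910, plus strand): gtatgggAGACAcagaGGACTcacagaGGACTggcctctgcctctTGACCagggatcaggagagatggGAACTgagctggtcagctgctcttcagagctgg
PCGF3-AS1 (chr4:777323-777423, minus strand): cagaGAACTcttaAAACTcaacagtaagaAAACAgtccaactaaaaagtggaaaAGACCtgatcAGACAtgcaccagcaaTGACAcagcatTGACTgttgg
ENSG00000269937 (chr16:2563710-2563810, minus strand): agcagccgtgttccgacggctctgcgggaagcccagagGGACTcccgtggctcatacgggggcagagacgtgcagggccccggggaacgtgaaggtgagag
ENSG00000291171 (chr12:132105115-132105215, plus strand): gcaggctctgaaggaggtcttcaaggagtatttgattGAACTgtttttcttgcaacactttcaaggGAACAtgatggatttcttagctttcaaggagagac
The summit is the middle base. The nearest DRACH adenosine lay 3 bases from it in GMDS-DT, 6 in PCGF3-AS1, 10 in ENSG00000269937 and 11 in ENSG00000291171. GMDS-DT held 2 copies of GGACT, the form of DRACH most often methylated in mRNA, ENSG00000269937 held 1, and PCGF3-AS1 and ENSG00000291171 held none in this window. A match describes the window and does not locate the modified base.

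The set of all members was then searched in windows that reach 75 bases to each side of the summit, reading the RNA strand. A DRACH match was present in 97.9% of member windows, averaged over libraries, but windows 300 bases to either side held one in a median of 92.9%. GGACT separated summit from flank more clearly. It was found in 25.3% ± 0.274 (SD, n = 2) of member windows in HepG2, 27.9% ± 1.48 (SD, n = 6) in K562 and 29.9% ± 1.69 (SD, n = 6) in NB4, against 13.8%, 11.8% and 12.3% of the flanks. Over all peaks of the lists, the windows with GGACT were 22.7% in HepG2, 27.1% in K562 and 23.6% in NB4. Where a member window held GGACT, its adenosine lay a median of 30 bases from the summit, and within 25 bases in 42.9% of cases.

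The 18 pentamers that make up DRACH did not share the excess evenly. GGACT stood at 2.32 ± 0.254 times its flank level (SD, n = 14 libraries), AGACT at 2.14 ± 0.176 times, GGACA at 2.05 ± 0.153 times and GAACT at 1.76 ± 0.173 times, each higher at the summit in 14 of 14 libraries (exact sign-flip permutation over libraries, two-sided, adjusted p = 0.000176). AGACA was found in 29.7% of summit windows and 20.3% of flanks, a ratio of 1.46 ± 0.0554 (SD, n = 14). TAACC was the reverse, with 5.30% of summit windows against 6.83% of flanks and a lower level at the summit in all but 1 library (exact sign-flip permutation, adjusted p = 0.000909). TAACT did not differ beyond the spread between libraries, with 9.16% against 9.57% (exact sign-flip permutation, adjusted p = 0.341). The 72 tests over 18 pentamers and 4 peak sets were adjusted together, and libraries of 1 line share their cells.

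**Figure D1:**
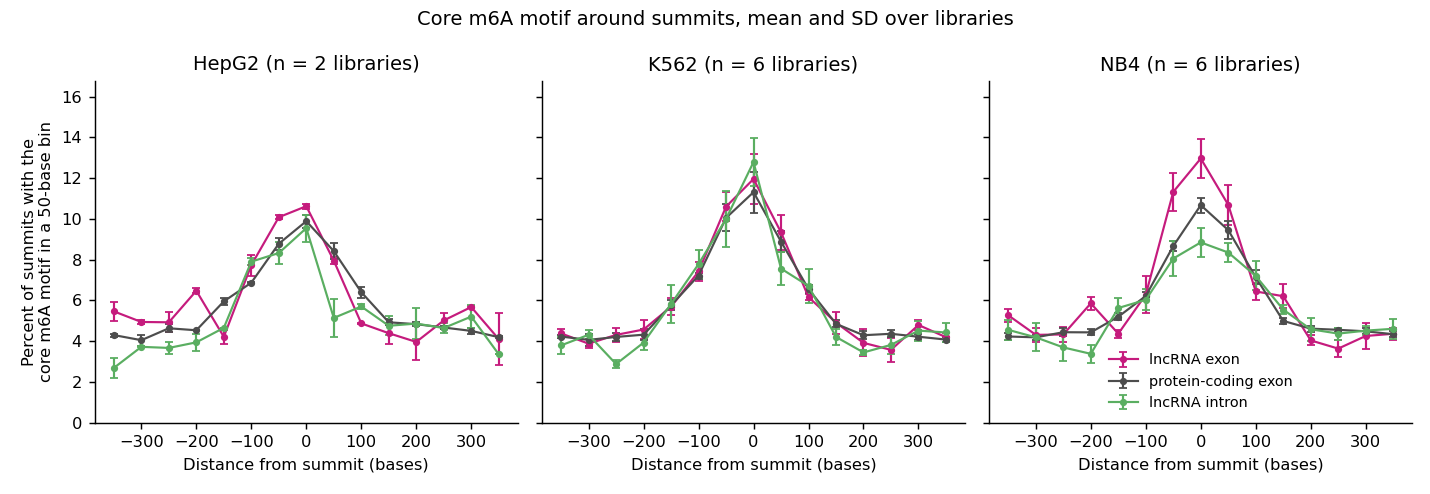
Percent of summits with the core m6A motif in 50-base bins around the summit, for lncRNA exons, protein-coding exons and lncRNA introns, with points as the mean and bars as the SD over the libraries of each line. The central bin reaches 10.6% in HepG2, 11.96% in K562 and 13% in NB4 for lncRNA exons, and in NB4 it stands above the 10.7% of protein-coding exons and the 8.85% of lncRNA introns.

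The number of member peaks differed between lines more than between libraries of a line. HepG2 WT libraries held 719 and 778 member peaks, K562 WT libraries 1522 and 1509, K562 Control libraries 1212 and 1321 and K562 KD libraries 1283 and 1184. NB4 Control libraries held 772, 817 and 826, and NB4 KD libraries 914, 842 and 848. K562 was thus the highest line in every group, and the ranges of HepG2 and NB4 overlapped. As a share of each list, members made up 3.18% and 2.84% in HepG2 WT and 3.46% and 3.48% in K562 WT, a difference of 0.458 points that the spread between replicates did not reach, with a two-sided exact permutation p = 0.333, which 2 libraries against 2 cannot go below.

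Whether RBFOX2 depletion changed the share of peaks in lncRNA exons was compared next. In K562 the share was 3.36% ± 0.102 in Control and 3.33% ± 0.00148 in KD libraries (SD, n = 2 each), a difference of -0.0348 points, smaller than the pooled SD of 0.0722 (p = 1 by two-sided exact permutation, where 0.333 is the lower bound) and 0.0374 without K562 Control 2. NB4 Control libraries had 2.55% ± 0.0721 and NB4 KD libraries 2.28% ± 0.0397 (SD, n = 3 each). The NB4 difference of -0.267 points exceeded the pooled SD of 0.0582, and the groups did not overlap, with a two-sided exact permutation p = 0.1, which 3 libraries against 3 cannot go below. The number of member peaks was not lower in NB4 KD, at 868 ± 40.0 against 805 ± 28.9 in Control (SD, n = 3 each), while the NB4 KD lists were called at 16.8 to 21.9 effective megareads and the Control lists at 10.8 to 15.9. The part of depth in this difference was not tested.

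Over both lines together the share in KD changed by -0.151 points on average, with K562 and NB4 weighted equally, and none of the 5 KD libraries reached the mean of its own Controls. With labels permuted within lines this gave p = 0.05 (exact permutation, two-sided, 120 arrangements) and an adjusted p = 0.1 over 3 such tests, so it did not pass. With all lists at 22635 peaks the value was -0.155 with an unadjusted exact permutation p = 0.0333, and without K562 Control 1 it was -0.187 with p = 0.0167. Leaving out each other library gave exact p from 0.05 to 0.1, the latter at -0.115 without K562 Control 2. The difference between the lines was 0.232 points (exact permutation, two-sided, p = 0.0667, adjusted p = 0.2).

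Fold and motif of the members moved less. A summit fold is the pileup at the summit over the local background, both with 1 read added, so it depends on depth. In this test it is compared only against the other peaks of a library, and raw folds of named regions below describe single libraries. Member peaks stood above the median of their own list by 0.0544 in K562 Control, 0.0296 in K562 KD, 0.0949 in NB4 Control and 0.0651 in NB4 KD on the log2 scale. The mean change of -0.0273 was in the same direction in 5 of 5 KD libraries and did not pass (exact permutation within lines, two-sided, p = 0.0667, adjusted p = 0.1). With basic transcripts only the value was -0.0288 with p = 0.0333, and without NB4 RBFOX2 KD 2 it was -0.0343 with p = 0.0167, both exact and unadjusted. Leaving out each other library gave exact p from 0.05 to 0.133, and lists of equal size gave p = 0.417. GGACT was present near 27.4% and 28.8% of member summits in K562 Control and KD and near 30.6% and 29.2% in NB4, a mean change of 0.00938 points (exact permutation within lines, two-sided, p = 1).

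**Figure D2:**
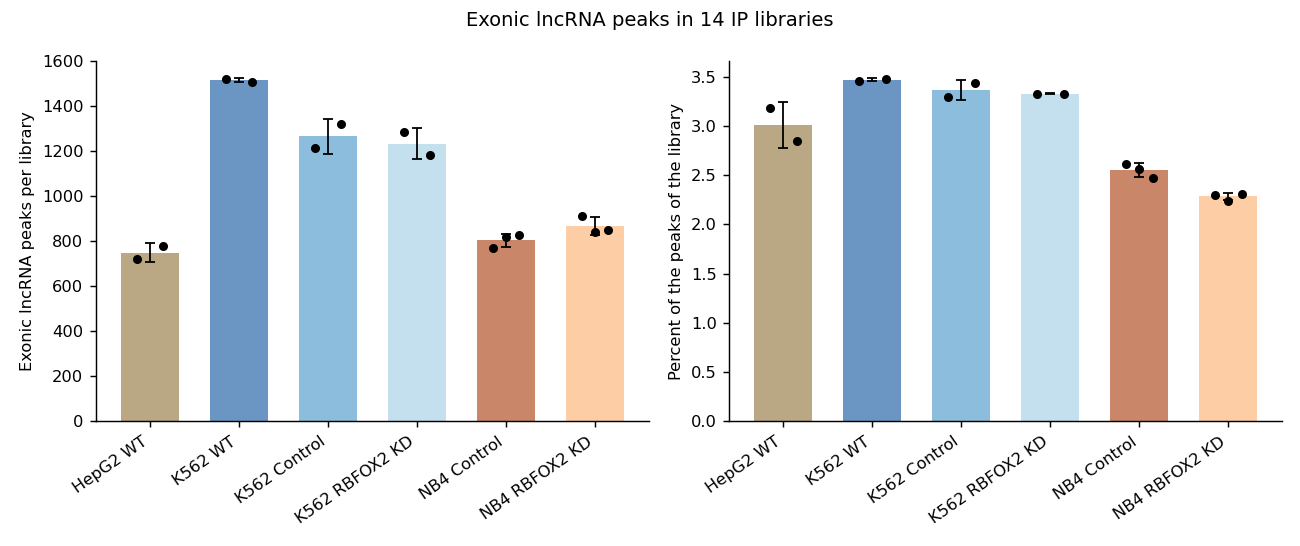
Exonic lncRNA peaks per library (left) and as a percent of the peaks of the library (right), with points as libraries, bars as group means and error bars as the SD. K562 libraries hold 1184 to 1522 such peaks and all others 719 to 914, and the NB4 KD libraries, at 2.24% to 2.31%, lie below the NB4 Control libraries, at 2.47% to 2.62%.

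Exonic lncRNA peaks were then set against 2 other classes of the same libraries that passed the same promoter rule, exonic peaks of protein-coding genes (151975 in all) and intronic lncRNA peaks (28684). Each library gave 1 difference, and 12 tests by exact sign flips over 14 libraries were adjusted together, where the smallest adjusted p reached was 0.000209. Libraries of a line share their cells, so the 14 differences are not independent. Values by line are given for fold against protein-coding exons, for GGACT and for DRACH. Against protein-coding exons, member peaks were narrower in 14 of 14 libraries, with a mean difference of -51.1 bases (301 against 353 bases, SD of the difference 10.04, adjusted p = 0.000209, exact sign-flip permutation). Their median log2 fold was lower in 14 of 14 libraries, with a mean difference of -0.149 ± 0.117 (SD, n = 14, exact sign-flip permutation, adjusted p = 0.000209). The gap in fold was -0.266 ± 0.0631 in K562 (SD, n = 6), -0.0698 ± 0.0510 in NB4 (SD, n = 6) and -0.0366 ± 0.0117 in HepG2 (SD, n = 2). Against lncRNA introns, member peaks were wider by 26.3 ± 8.40 bases and higher in log2 fold by 0.158 ± 0.0456, each in 14 of 14 libraries (SD, n = 14, exact sign-flip permutation, adjusted p = 0.000209).

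GGACT was on average more frequent at member summits than at either comparison class, but not in every K562 library. The mean was 28.3% for members, 26% for protein-coding exons and 23.8% for lncRNA introns. The excess over protein-coding exons was 2.35 points ± 2.00 (SD), in 13 of 14 libraries (exact sign-flip permutation, adjusted p = 0.000366), and came mostly from NB4, at 4.30 ± 1.28 points (SD, n = 6), with 0.818 ± 0.787 in K562 (SD, n = 6) and 1.08 ± 0.478 in HepG2 (SD, n = 2). The excess over lncRNA introns was 4.53 points ± 3.71 (SD), in 11 of 14 libraries (exact sign-flip permutation, adjusted p = 0.00205), with 7.96 ± 1.19 points in NB4 (SD, n = 6), 4.55 ± 0.121 in HepG2 (SD, n = 2) and 1.08 ± 2.46 in K562 (SD, n = 6). The members lay below lncRNA introns in K562 Control 1 (29.3% against 29.5%), K562 Control 2 (25.4% against 26.7%) and K562 RBFOX2 KD 1 (28.2% against 29.4%). Median GC content near the summit ranged from 47.7% to 53.6% over libraries for members, from 50.3% to 53.6% for protein-coding exons and from 40.4% to 50.99% for lncRNA introns, and its part in these differences was not tested. The share of windows with any DRACH match differed from protein-coding exons by 0.248 points, which did not pass (exact sign-flip permutation, adjusted p = 0.0782), and from lncRNA introns by 0.929 points, in 10 of 14 libraries (exact sign-flip permutation, adjusted p = 0.0214), a call that ended without summits opposite a protein-coding gene (unadjusted exact p = 0.0524). The lines did not share 1 direction. Against lncRNA introns the DRACH difference was 1.16 ± 0.0779 points in HepG2 (SD, n = 2), -0.279 ± 0.622 in K562 (SD, n = 6) and 2.06 ± 0.900 in NB4 (SD, n = 6). Against protein-coding exons it was 0.937 ± 0.0346, 0.429 ± 0.293 and -0.162 ± 0.296 in the same order.

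Fewer member peaks than mRNA peaks recurred in other cell lines. A peak overlapping a peak in each of the other 2 lines was found for 37.3% of members, 62.5% of protein-coding exon peaks and 19.4% of lncRNA intron peaks (means over 14 libraries). The difference from protein-coding exons was -25.3 ± 4.96 points (SD), in the same direction in 14 of 14 libraries, and that from lncRNA introns 17.8 ± 2.42 points, also in 14 of 14 (SD, n = 14, exact sign-flip permutation, adjusted p = 0.000209 for both). The median percentile of −log10 q in a list ranged from 49.2 to 53.6 for members, from 59.0 to 63.1 for protein-coding exons and from 40.7 to 46.4 for lncRNA introns, and the part of peak strength in the recurrence was not tested.

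Position within the exon was compared with the exon bases that could have held a member, that is, the bases of the same transcripts outside the promoter zones and protein-coding genes. Summits lay in the last or only exon for 77.5% of members, and 80.4% of the eligible bases did too, so the last exon held no more summits than its length. Protein-coding exon summits did so in 62.7% of cases, with 62.6% of eligible bases. The difference between the classes was 14.8 ± 1.41 points in 14 of 14 libraries (SD, exact sign-flip permutation, adjusted p = 0.000209). Only exons count here: 17.5% of members lay in transcripts of a single exon, while 148482 of 151975 protein-coding exon summits lay in spliced transcripts. It is therefore not a difference within spliced transcripts, and the part of single-exon transcripts in it was not tested. Exons with a member had median lengths of 1382 to 1687 bases over libraries. A longer exon offers more bases to a summit, and no length expected from the eligible bases was set beside these. Exons with a member were shorter than the exons of protein-coding peaks, with a difference of -88.9 ± 70.6 bases, in 11 of 14 libraries (SD, exact sign-flip permutation, adjusted p = 0.00205), a call that ended with basic transcripts only (difference -43.9 bases, unadjusted exact p = 0.0526).

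Member summits were less frequent within 50 bases of a splice junction than eligible bases were. In spliced transcripts (12007 member summits), 7.87% of member summits lay within 50 bases of a junction, where 10.8% of eligible bases lay, and 6.10% from 50 to 100 bases away, where 6.32% of bases lay. Within 100 bases the member summits ranged from 11.5% in NB4 RBFOX2 KD 1 to 16.9% in K562 Control 2, beside 17.1% of bases. From 100 to 200 bases the summits made up 17.6% and the bases 6.99%, and from 200 to 400 bases 21.5% and 10.3%. Beyond 1600 bases the order was reversed, with 15.2% of summits and 34.8% of bases. In protein-coding exons the first 50 bases held 9.27% of summits and 20.5% of bases, and the bins from 100 to 200 and from 200 to 400 bases held 20.3% and 24.5% of summits over 5.91% and 7.77% of bases. These shares pool all libraries, are not weighted by transcript abundance and are a description, with no test.

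**Figure D3:**
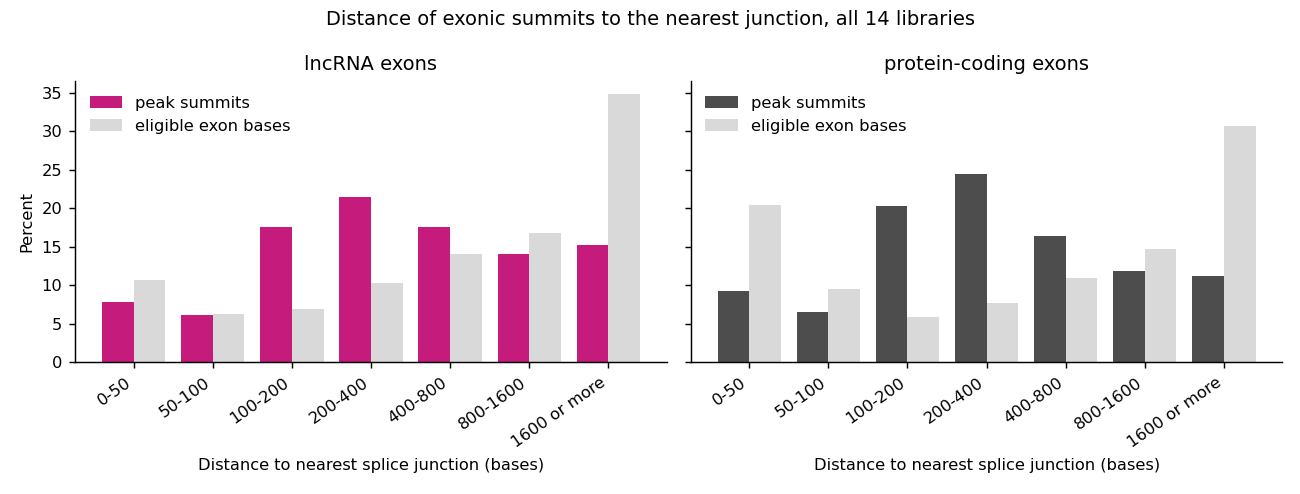
Distance of exonic summits to the nearest splice junction in lncRNA exons (left) and protein-coding exons (right), in percent of summits (dark bars) and of eligible exon bases (grey bars), pooled over 14 libraries. Summits exceed bases from 100 to 800 bases in both classes and fall short of them within 50 bases and beyond 1600 bases.

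A region was taken as present in a line when it was listed in both HepG2 WT, in both K562 WT or in at least 2 NB4 Control libraries. Of 1703 exonic lncRNA regions present in any line, 723 (42.5%) were present in K562 only, 194 (11.4%) in HepG2 only, 189 (11.1%) in NB4 only and 244 (14.3%) in all 3 lines. Regions in protein-coding exons were present in K562 only in 18.9% and in all 3 lines in 36.9% of cases. Regions in lncRNA introns went further the other way, with 57.0% in K562 only and 5.39% in all 3 lines, and over all regions the values were 33.7% and 19.1%. The K562 WT lists were the longest of these groups, and WT and Control cells differ in treatment, so the counts describe these libraries. No test was made.

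**Figure D4:**
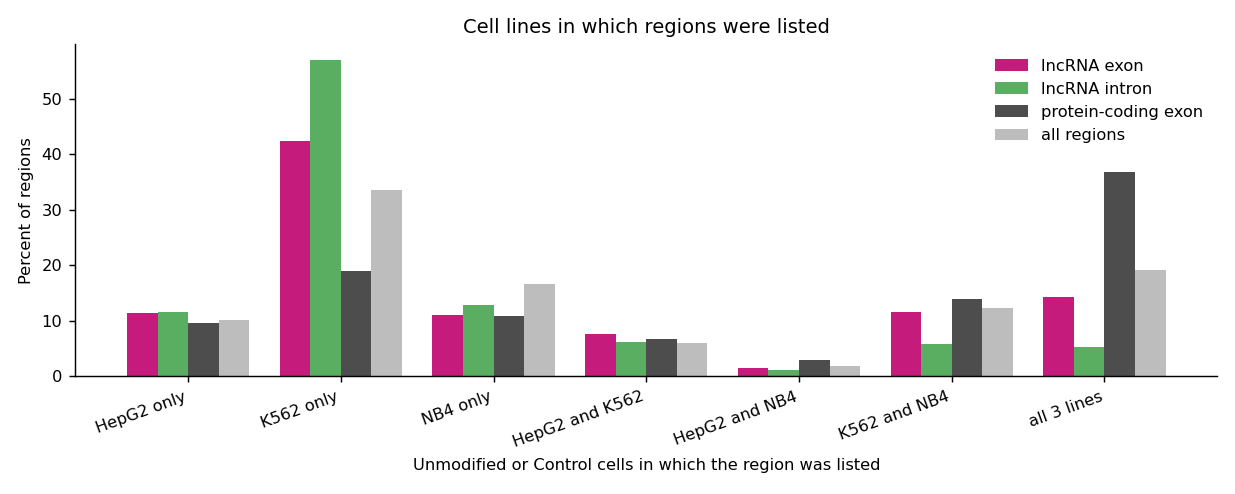
Percent of regions by the lines in which they were listed, for lncRNA exons, lncRNA introns, protein-coding exons and all regions. lncRNA exons lie between lncRNA introns and protein-coding exons both in the K562 only group (42.5%, against 57.0% and 18.9%) and in the group of all 3 lines (14.3%, against 5.39% and 36.9%).

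In all, 191 exonic lncRNA regions (8.09%) were listed in all 14 libraries, against 22.8% of protein-coding exon regions. Of these, the highest mean percentile was that of ENSG00000242588 (chromosome 7, exon 22 of 22), at 99.2, with folds from 10.4 to 58.6. GMDS-DT, the divergent transcript of the GDP-mannose dehydratase gene (chromosome 6, exon 5 of 6), followed at 99.2, with folds of 4.53 and 7.20 in HepG2 WT, 23.6 to 47.5 in K562 and 16.6 to 28.3 in NB4. PCGF3-AS1 (chromosome 4, exon 3 of 3), opposite the gene of a Polycomb ring finger protein, had 98.4 and folds from 5.11 to 25.8. HepG2 gave the lowest folds in each of these 3, the line whose member peaks also had the lowest median fold, 4.11 ± 0.242 (SD, n = 2).

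NORAD, an abundant lncRNA of 1 exon that binds PUMILIO proteins (chromosome 20, 36049414 to 36050980, minus strand), was ninth among them, at 96.8. Its fold was 2.81 and 4.45 in HepG2 WT, 21.3 and 17.7 in K562 WT, 30.4 and 34.9 in K562 Control, and 38.4 and 42.2 in K562 KD. In NB4 it was 13.1, 14.8 and 14 in Control and 15.3, 11.4 and 13.3 in KD. The Control and KD values of NB4 overlap. The K562 values do not, but folds of all regions stood higher in K562 KD too, and the percentiles within the lists, 98.7 and 99.5 in Control and 99.7 and 99.4 in KD, overlap. The other regions in the leading 10 lay in ENSG00000269937, COX10-DT, ENSG00000291171, MRPL20-AS1, ENSG00000291228 and ZNF496-DT, with mean percentiles from 96.7 to 97.8.

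The strongest regions of each line that no library of another line listed are shown by the leading one of each line, HepG2, K562 and NB4 in that order. For K562 the region ranked second stands in, since no sequence is shown from the chromosome of the leading one.
ENSG00000236283 (chr2:164849119-164849219, plus strand): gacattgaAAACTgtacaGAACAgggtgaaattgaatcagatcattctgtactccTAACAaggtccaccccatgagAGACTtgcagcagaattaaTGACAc
LINC02616 (chr4:37018485-37018585, plus strand): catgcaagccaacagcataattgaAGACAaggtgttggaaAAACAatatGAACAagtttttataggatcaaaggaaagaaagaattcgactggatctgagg
FAM30A (chr14:105925037-105925137, plus strand): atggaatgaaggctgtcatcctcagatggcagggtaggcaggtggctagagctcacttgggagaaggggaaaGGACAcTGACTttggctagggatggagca
The DRACH adenosine nearest the summit lay 7 bases away in ENSG00000236283, 1 in LINC02616 and 24 in FAM30A, and none of the 3 windows held GGACT.

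The HepG2 region of ENSG00000236283 (chromosome 2, exon 2 of 8) had folds of 10.6 and 11.5. It was followed by SLCO4A1-AS1, antisense to an organic anion transporter gene, with folds of 9.97 and 13.3, by ENSG00000262445 and by EGFR-AS1, antisense to the epidermal growth factor receptor gene, with 8.59 and 11.95. HISLA, an lncRNA known to stabilise HIF-1α, had 4.50 and 6.51. All 5 had mean percentiles from 95.7 to 99.1 in HepG2, among the strongest peaks of those lists.

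In K562, LINC02964 (chromosome 8, exon 8 of 8) led with a mean percentile of 98.9 and folds from 8.77 to 19.3. LINC02616 (chromosome 4, exon 2 of 3) had folds of 27.8 and 18.4 in WT, 34.6 and 37.2 in Control and 38.4 and 45.5 in KD libraries. LINC01287 (chromosome 7) ranged from 14.2 to 28.3 and LINC01029 (chromosome 18) from 8.62 to 11.8, and ENSG00000268119 (chromosome 19) was the fifth. In NB4, FAM30A (chromosome 14, exon 6 of 6), which lies in the immunoglobulin heavy chain locus, had folds of 13.8, 10.3 and 8.15 in Control and 9.10, 15.2 and 15.5 in KD libraries, which overlap. LINC02870 (chromosome 10, exon 3 of 3) had 8.43, 10.4 and 6.55 in Control and 17.3, 12.3 and 14.9 in KD. These do not overlap, but no exonic lncRNA region of NB4 passed the test of height given below. ENSG00000285534, LINC02953 and LINC00926 completed the NB4 group, with mean percentiles from 90.4 to 94.6.

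Several genes carried many regions, in counts not scaled by the exon length of the gene. XACT, an X-linked lncRNA known to coat active X chromosomes in human pluripotent cells, had the most, with 37 regions. It held 37 peaks in each K562 WT library, 22 and 15 in K562 Control, 24 and 21 in K562 KD, and none in HepG2 or NB4. KCNQ1OT1, the antisense transcript that silences an imprinted domain on chromosome 11, had 26 regions and was listed in every line, with 19 and 20 peaks in HepG2 WT, 9 to 14 in K562 and 6 to 20 in NB4. It is annotated from 2597308 to 2700003 on the minus strand. The spread among NB4 libraries was wide, with 6, 13 and 13 peaks in Control and 19, 20 and 14 in KD.

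MIR646HG (chromosome 20), host gene of miR-646, had 15 regions and peaks in NB4 alone, 11 to 15 per library. CCDC26 (chromosome 8), an lncRNA of a locus altered in myeloid leukaemia, also had 15, with 0 peaks in HepG2, 3 to 10 in K562 and 6 to 14 in NB4. MIR4435-2HG (chromosome 2), known for a role in the survival of myeloid cells, had 13 regions and 5 to 9 peaks in every library. AFAP1-AS1 (chromosome 4) had 9 regions and 6 to 10 peaks per K562 library, with 0 in the other lines. PAX8-AS1 (chromosome 2) also had 9, with 0 peaks in HepG2, 3 to 8 in K562 and 6 to 9 in NB4. HELLPAR (chromosome 12), ENSG00000291225 (chromosome 15) and ENSG00000291117 (chromosome 17) had 12, 10 and 9 regions.

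**Figure D5:**
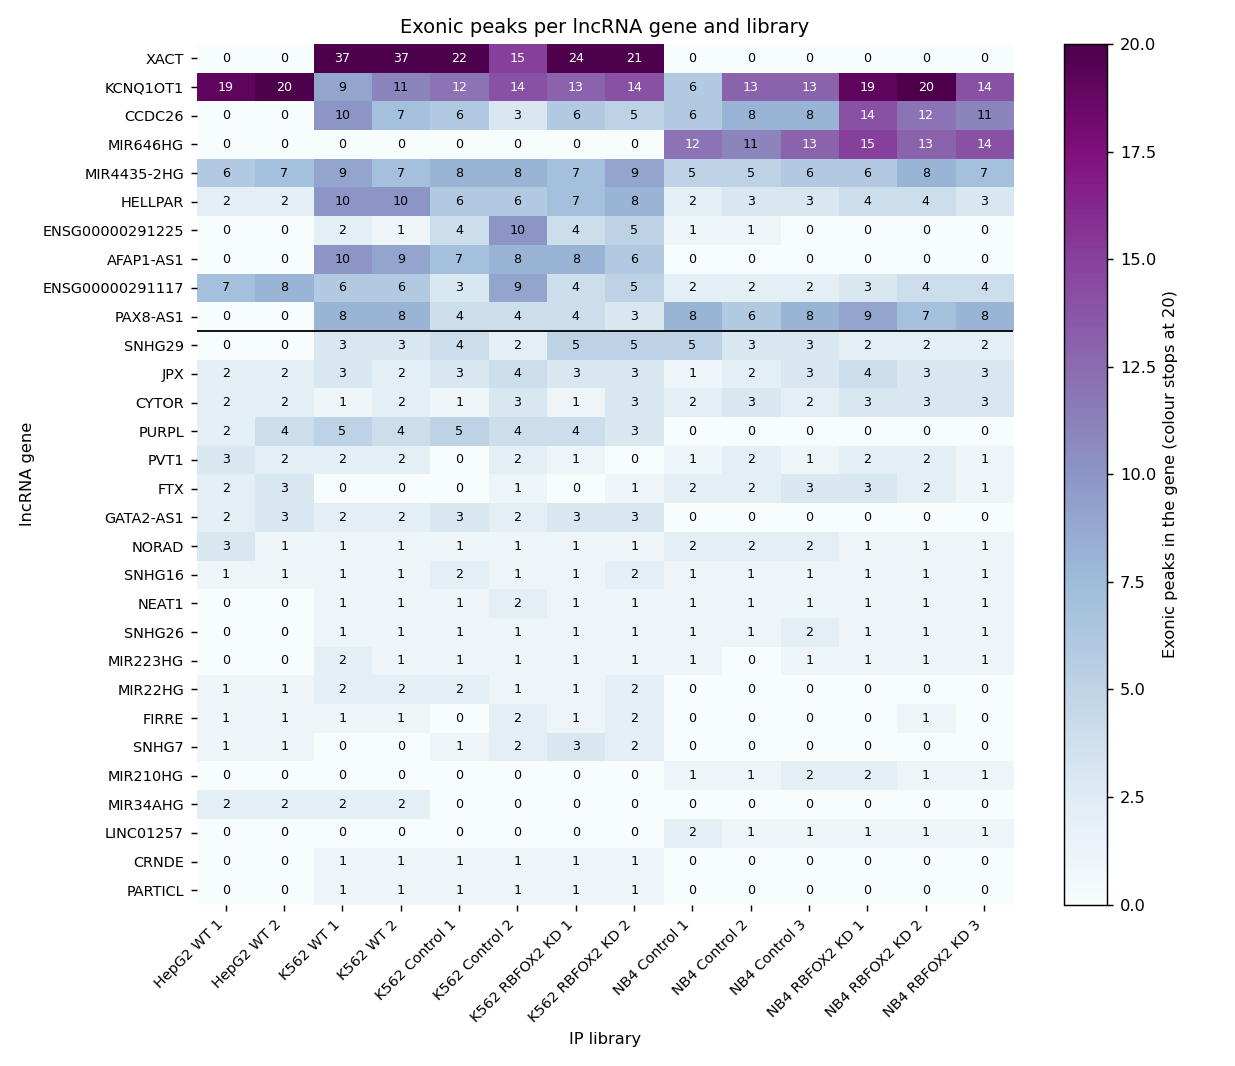
Number of exonic peaks in each library for the 10 lncRNA genes with most regions (above the line) and for the 20 further genes of the gene lists with most peaks (below it), with colour and figures giving the same count. XACT and AFAP1-AS1 are filled in K562 columns alone, MIR646HG in NB4 columns alone, and KCNQ1OT1 and MIR4435-2HG in all 14 columns.

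Lists of known lncRNAs were read against the share of all 18756 lncRNA genes with a member in at least 2 libraries of a line, which was 2.33% in HepG2, 5.50% in K562 and 3.29% in NB4. Of the 18756 genes, 1556 had a member in any of the 14 libraries, the looser rule by which a listed gene is said to have a member. A list drawn up as nuclear and chromatin-associated lncRNAs had 24 genes, of which 21 were found in the annotation. Of these, 12 had a member, with 8 in HepG2, 9 in K562 and 7 in NB4 by the rule of 2 libraries. The list also holds CYTOR and NORAD, and where its RNAs reside in the cell was not measured here. Besides KCNQ1OT1 the genes with a member were led by JPX, a gene of the X-inactivation centre with 38 peaks in 14 libraries, by CYTOR with 31 in 14 and by PVT1, next to MYC, with 21 in 12.

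Host genes differed in which lines carried them. Of 26 microRNA host genes, 10 had a member, with 4 in HepG2, 4 in K562 and 5 in NB4 by the rule of 2 libraries. MIR223HG, which encodes the myeloid miR-223, had 12 peaks in 11 libraries, 6 of K562, 5 of NB4 and 0 of HepG2. MIR22HG also had 12, in both HepG2 and all 6 K562 libraries and in no NB4 library. Of 28 small nucleolar RNA host genes, 6 had a member, with 3 in HepG2, 4 in K562 and 4 in NB4 by the rule of 2 libraries. SNHG29 had 39 peaks in 12 libraries, SNHG16 had 16 in 14, SNHG26 had 13 in 12 and SNHG7 had 10 in 6. In most of the other snoRNA host genes no summit met the rule.

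Of 22 myeloid and leukaemia lncRNAs found (24 listed), 10 had a member, 2 in HepG2, 7 in K562 and 4 in NB4 by the rule of 2 libraries. GATA2-AS1, beside the gene of a haematopoietic transcription factor, had 2 and 3 peaks in the HepG2 libraries, 2 to 3 in each K562 library and 0 in NB4. Of 18 liver lncRNAs found (20 listed), 4 had a member, with 1 in HepG2, 2 in K562 and 0 in NB4 by the rule of 2 libraries. LINC00261, next to FOXA2, had 4 peaks, all in HepG2. HULC, named for its high level in liver cancer, had 2 member peaks and LINC01018 had 2, and all of these were in K562 libraries and none in HepG2. Of 13 imprinted lncRNAs found (20 listed), 3 had a member, KCNQ1OT1, SNHG14 with 5 peaks in HepG2 alone, and MEG3 with 1. By the rule of 2 libraries the imprinted genes numbered 2 in HepG2, 1 in K562 and 1 in NB4. Of 10 p53-induced lncRNAs found (14 listed), 5 had a member, with 4 in HepG2, 4 in K562 and 2 in NB4 by the rule of 2 libraries. PURPL, a p53 target that restrains p53, had 2 and 4 peaks in the HepG2 libraries, 3 to 5 in each K562 library and 0 in NB4.

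Regions with a peak in every Control and no KD library of a line were called lost, and the reverse gained. In K562, 22 of 1457 exonic lncRNA regions were lost (1.51%) and 16 gained (1.10%), beside 1.71% and 1.73% of all 46038 regions. In NB4, 13 of 1034 were lost (1.26%) and 32 gained (3.09%), beside 0.619% and 3.53% of all 48016 regions. The NB4 lists of KD cells were the longer and deeper ones. These are counts of presence with no test, and 3 of the 4 member shares lay at or under the share of all regions. The lost regions of NB4 lay above it, from 13 regions.

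With 2 libraries a group the K562 counts rested on each of them. They became 159 lost and 36 gained without K562 Control 1, 59 and 58 without K562 Control 2, 90 and 51 without K562 RBFOX2 KD 1, and 33 and 72 without K562 RBFOX2 KD 2. As shares of member regions the lost ones were 11.2%, 4.47%, 6.42% and 2.32% in that order, beside 13.8%, 5.63%, 6.24% and 2.75% of all regions, and the gained ones 2.54%, 4.39%, 3.64% and 5.06%, beside 7.12%, 4.56%, 5.03% and 6.22%. In NB4 they ran from 17 to 25 lost and from 40 to 52 gained, with 22 lost without NB4 Control 1, 25 lost and 52 gained without NB4 Control 3, and 20 lost without any 1 of the 3 KD libraries. The NB4 shares were 1.70% to 2.47% lost, beside 0.898% to 1.39% of all regions, and 3.98% to 5.13% gained, beside 4.45% to 6.94%. Fewer libraries have to meet the condition in such counts, which lets more regions pass.

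The leading lost and gained regions with a sequence to show are given for K562 (lost, then gained) and NB4 (lost, then gained), with the summit of a library that listed them.
ENSG00000291208 (chr7:45808667-45808767, plus strand): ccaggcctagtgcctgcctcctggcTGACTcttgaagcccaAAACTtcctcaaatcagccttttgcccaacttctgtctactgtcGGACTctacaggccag
ENSG00000273733 (chr19:11221145-11221245, plus strand): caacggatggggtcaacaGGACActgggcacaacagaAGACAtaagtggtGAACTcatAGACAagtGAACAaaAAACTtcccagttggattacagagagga
FAM201A (chr9:38622370-38622470, plus strand): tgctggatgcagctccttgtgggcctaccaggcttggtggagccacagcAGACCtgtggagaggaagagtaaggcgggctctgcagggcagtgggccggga
MIR3681HG (chr2:12397718-12397818, plus strand): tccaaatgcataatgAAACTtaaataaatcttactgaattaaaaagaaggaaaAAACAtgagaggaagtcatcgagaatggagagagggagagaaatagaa
A DRACH adenosine lay within 7 bases of the summit in all 4, at 7, 2, 1 and 5 bases, and only the lost K562 region held GGACT, once.

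The leading changed regions were weak or middling peaks. LINC03021 (chromosome 8) was lost in K562 with folds of 5.24 and 6.31 in Control. The lost K562 region of ENSG00000291208 (chromosome 7, exon 17 of 17) had folds of 5.12 and 6.01 in K562 Control and was listed in all 10 libraries of WT cells and NB4 too, so only the 2 K562 KD libraries lacked it. PAX8-AS1 had 5.84 and 4.57 in Control at a region in exon 5 of 5. The gained K562 regions, ENSG00000273733 with 7.95 and 5.09, HIF1A-AS3, antisense to the gene of the hypoxia factor HIF-1α, with 4.78 and 7.55, and ENSG00000224810 with 5.85 and 5.07, were listed in the 2 K562 KD libraries and nowhere else.

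In NB4, the lost region of FAM201A (chromosome 9, exon 2 of 2) had folds of 6.92, 6.84 and 6.41 in Control and was listed in both HepG2 WT libraries. NDUFA6-DT (chromosome 22) had 6.38, 6.20 and 4.43 in NB4 Control and was also listed in all 6 K562 libraries, at 9.61 to 13.8, and ENSG00000290858 (chromosome 17) had 5.53 to 5.91 in NB4 Control alone. The gained NB4 regions of MIR3681HG (chromosome 2, 5.72, 8.40 and 6.35 in KD) and MCM3AP-AS1 (chromosome 21, 6.27, 7.35 and 5.33) were listed in all 6 K562 libraries as well, and that of LINC00869 in the 3 NB4 KD libraries alone. Over both lines 0 exonic lncRNA regions were lost and 1 was gained, in NUTM2A-AS1 (chromosome 10, exon 4 of 5), with folds from 2.81 to 3.97 in the 5 KD libraries and 4.78 and 4.11 in K562 WT. Over all regions, 3 were lost and 16 gained in both lines.

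Change in height was tested by limma on log2 summit fold, centred on the median of each library, over regions listed in every library compared. In K562, 0 of 897 exonic lncRNA regions passed an adjusted p of 0.05 in either direction, as did 0% of all 24752 regions, and with 2 libraries a group this does not show that folds did not differ. At an unadjusted p under 0.05, 7 member regions were higher and 22 lower in KD, beside 1.69% and 2.25% of all regions. In NB4, 0 of 453 passed, as did 0% of all 16984 regions, and 22 were higher and 52 lower at an unadjusted p under 0.05, beside 7.08% and 7.12% of all regions. With 3 libraries a group, the count of 0 in NB4 does not show that folds did not differ either. The median change of the member regions was -0.0250 in K562 and -0.111 in NB4, beside -0.00323 and 0.00114 over all regions, and 417 of 897 and 171 of 453 members lay above 0. Without centring, the K562 split at an unadjusted p under 0.05 was 16 higher and 13 lower, or 1.78% and 1.45% of members, beside 2.89% and 0.933% of all regions, with KD folds 0.11 higher over all regions on the log2 scale. The NB4 split was 21 and 47, or 4.64% and 10.4%, beside 7.001% and 6.34%.

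The regions with the smallest p are given by values. In K562, FAM86DP, a gene that overlaps a pseudogene (chromosome 3, exon 4 of 4), had folds of 32.8 and 30.1 in Control and 12.1 and 13.9 in KD, a log2 change of -1.39 ± 0.259 (SE, limma, adjusted p = 1.00). ENSG00000291048 (chromosome 8) had 34.8 and 22.1 against 10.2 and 15.3, MIR3667HG (chromosome 22) 7.84 and 10.4 against 5.10 and 4.61, and ENSG00000285756 (X) 12.9 and 11.96 against 5.50 and 8.47. On the other side, a region of XACT (exon 2 of 2) had 15.7 and 9.64 in Control against 21.2 and 26.9 in KD, a log2 change of 0.84 ± 0.299 (SE, limma, adjusted p = 1.00). LINC01446, CTC-338M12.4, LINC02987 and ENSG00000275016 had log2 changes from 0.61 to 0.86. None of these passed.

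In NB4, LINC02985 (chromosome 12, exon 4 of 4) had folds of 10.3, 6.96 and 10.5 in Control and 3.89, 3.15 and 3.89 in KD, a log2 change of -1.33 ± 0.238 (SE, limma, adjusted p = 0.178). ENSG00000151303 (chromosome 10) had 21.3, 15.5 and 14.1 against 8.72, 8.69 and 7.81, TEKT4P2 7.65, 6.65 and 7.29 against 3.67, 4.25 and 3.81, and ENSG00000232721 16.9, 16 and 11.6 against 7.92, 5.35 and 9.06. TRG-AS1, antisense within the T cell receptor gamma locus (chromosome 7), had 3.48, 4.50 and 3.24 against 5.88, 7.14 and 5.97, a log2 change of 0.76 ± 0.227 (SE, limma, adjusted p = 0.230). ENSG00000291003, ENSG00000287837 and ENSG00000290523 had log2 changes of 1.10, 0.80 and 0.71. Groups did not overlap in any of these, but choosing regions by smallest p favours that. None passed.

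HepG2 WT and K562 WT were compared in the same way, where folds of all regions stood 1.05 higher in K562 on the log2 scale, so changes are given relative to that shift. Pileups were whole numbers in the K562 WT lists and not in the HepG2 WT lists. Centring sets only the library medians equal, and the part of pileup and depth in the calls was not tested. Of 374 exonic lncRNA regions listed in all 4 libraries, 59 were higher in K562 and 87 lower at an adjusted p of 0.05 (limma), that is 146 in all, beside 14% and 18.6% of all 12839 regions. Without K562 WT 1, 22 were called (5 higher and 17 lower, 1.34% and 4.55% of members, beside 0.989% and 2.86% of all regions), and without K562 WT 2, 18 (4 and 14, 1.07% and 3.74%, beside 0.701% and 2.24%). Without HepG2 WT 1 or 2, 112 and 129 were called. Without centring, 267 were higher and 10 lower, or 71.4% and 2.67% of members, beside 75.4% and 1.503% of all regions.

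PMS2P4, a pseudogene-derived RNA related to a mismatch repair gene (chromosome 7, exon 6 of 6), had folds of 2.997 and 3.37 in HepG2 and 18.9 and 19.2 in K562, a centred log2 change of 1.54 ± 0.146 (SE, limma, adjusted p = 0.00519). FOXD2-AS1 (chromosome 1) had 2.81 and 2.88 against 14.7 and 14.8, and ENSG00000291156, ENSG00000260949 and ENSG00000268858 were also higher, with centred log2 changes from 1.44 to 1.57. LINC00662 (chromosome 19, exon 3 of 3) had 3.38 and 3.52 in HepG2 and 1.73 and 1.94 in K562, a centred log2 change of -1.96 ± 0.159 (SE, limma, adjusted p = 0.00519). AJUBA-DT had 8.03 and 8.98 against 5.31 and 4.93, EMBP1, which overlaps a pseudogene, 7.61 and 10.6 against 3.31 and 4.61, and CD2BP2-DT and DUXAP8 were also lower, by -1.68 and -1.51. All 5 lower regions were lower in K562 before centring too.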

How the data were processed

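MeRIP-seq of caRNA gave 14 peak lists, 1 per IP library. Per the labels and the study's methods, the authors trimmed reads with Trimmomatic 0.39, aligned them to hg38 with HISAT2 2.1.0, split strands with SAMtools 1.9 and called peaks with MACS2 on each library. Whether the input served as background is not given in the sources used here. The deposited lists give for each peak the fold (a ratio of summit pileup to local background), −log10 of the p-value and of the q-value, and an integer score derived from q. The score was not used. The smallest deposited −log10 q was 2.00. Read counts per region are not part of these lists, which leaves count models aside.

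Summits were annotated with GENCODE 44 on hg38, and 0 peaks ran past a chromosome end. Effective reads were solved from fold and p-value. Tests were exact permutations over libraries, and limma 3.58.1 (R 4.3.3) for regions, with Benjamini-Hochberg adjustment over all regions, checked on simulated data. In that check limma missed many of the changes put in, and in K562 Control and KD all of them. Python 3.11.15, numpy 2.4.6 and pandas 2.3.3 were used. Named regions are those with most regions per gene, highest mean percentile, or smallest p, 1 per gene. The members and gene lists were chosen with earlier results of these data known. Alternatives were a −log10 q of at least 10, lists of 22635 peaks, no protein-coding gene opposite, basic transcripts, windows of 75 bases around the summit, another scaling, a pseudocount of 1, the replicate block and leaving out each library. Some sequences and 1 gene are not reported here.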

Additional observations from a re-analysis of the deposited data

How the results depend on the processing

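Of the 12 class differences, 9 kept direction and call in every alternative run. The exceptions were DRACH against protein-coding exons, which passed at 0.509 points without summits opposite a protein-coding gene and at 0.287 with basic transcripts, and ranged from 0.193 to 0.311 over left-out libraries, with unadjusted exact p from 0.0288 to 0.150, under 0.05 without NB4 Control 3 and without NB4 RBFOX2 KD 3; DRACH against lncRNA introns, which did not pass at 0.910 without summits opposite a gene; and exon length, which did not pass at -43.9 bases with basic transcripts. The share over both lines passed before adjustment at -0.155 with lists of equal size and ran from -0.187 to -0.115 over left-out libraries (exact p from 0.0167 to 0.1), and the fold passed at -0.0288 with basic transcripts and ran from -0.0345 to -0.0201 (exact p from 0.0167 to 0.133). The motif difference changed sign to -0.0610 without summits opposite a gene and ran from -0.954 to 0.973 over left-out libraries. The K562 share ran from -0.107 to 0.0374, the latter without K562 Control 2.

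With lists of equal size, 21 exonic lncRNA regions were lost and 8 gained in K562 (2.37% and 0.903%, beside 1.56% and 1.46% of all regions), and 15 lost and 13 gained in NB4 (2.12% and 1.84%, beside 1.63% and 1.92%). With windows around summits, 36 were lost and 44 gained in K562 (2.01% and 2.45%, beside 2.08% and 2.45%), and 22 lost and 41 gained in NB4 (1.62% and 3.02%, beside 0.933% and 3.44%), and 11.1% of regions were in all 3 lines. Over left-out libraries the counts were 33 to 159 lost and 36 to 72 gained in K562, and 17 to 25 lost and 40 to 52 gained in NB4. The limma calls between HepG2 and K562 numbered 277 without centring, chosen after seeing the data, and 18 to 129 over left-out libraries. Deviations of libraries with the same number correlated at -0.0718 in K562, 0.00472 between HepG2 and K562 WT, and -0.112 to -0.0350 in NB4. With 2 libraries a group the other pairing gives the same value with the opposite sign. These values therefore cannot show whether libraries with the same number belong together. With the replicate block, 0 exonic lncRNA regions were called in K562, 0 in NB4 and 144 between HepG2 and K562. Where not stated, the cause of a change was not tested. Depth limits weak peaks, and the lists cannot show methylation level.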

Other observations

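The region of ENSG00000291159 on chromosome 15 (84631484 to 84632384, plus strand), in a gene that overlaps a pseudogene, was among the 5 regions of smallest p in both lines, with opposite signs. Its folds were 15.4 and 16.8 in K562 Control against 9.68 and 7.43 in K562 KD, and 3.11, 3.41 and 3.38 in NB4 Control against 5.09, 6.94 and 10.1 in NB4 KD. The difference between the lines, chosen for a test after these values were seen, was -2.11 ± 0.388 on the log2 scale (SE, limma interaction, adjusted p = 0.537 over 10519 regions), and so did not pass. Another region of the same gene (84641038 to 84641538) went the other way in NB4, from 10.2, 9.09 and 8.15 in Control to 4.79, 4.80 and 4.81 in KD. Over all regions, 0 passed this interaction, and 34 of 296 exonic lncRNA regions had an unadjusted p under 0.05, beside 7.71% of all regions.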
